A study of Mus musculus with 36 samples.

Results

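Levels of 10 genes of surfactant and of the alveolar type 2 cell were followed in mouse lung RNA after exposure to oil and oil dispersants. They are Sftpa1, Sftpb, Sftpc, Sftpd, Abca3, Lamp3, Slc34a2, Napsa, Lpcat1 and Nkx2-1. They were taken by symbol, and all 10 are listed in both count tables of the study, among 18116 genes in the table of female mice, 18291 in that of male mice and 18691 in either. The lungs came from 36 wild-type C57BL/6 mice, with 3 male and 3 female mice in each of 6 groups, which the study's methods give as 8 weeks old at the first dose. The groups received saline (Hank's balanced salt solution, the vehicle, as control), MC252 crude oil, the dispersant Corexit 9500, the dispersant Corexit 9527, 9500+oil or 9527+oil. Oil and dispersants were given as 0.1 fractions, in the airway, on days 0, 7 and 13, and the mice were killed on day 14. The labels call the route intratracheal, whereas the study's methods describe oropharyngeal aspiration of 50 µL and sequencing of the left lung. Male and female mice have separate count tables, so sex and table cannot be told apart. No mouse carried a deletion or a transgene.

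Alveolar type 2 cells are cuboidal cells of the alveolar wall that make, store and recycle pulmonary surfactant, the film of phospholipid and protein that lowers surface tension at the air-liquid interface, and they are the progenitors of alveolar type 1 cells. Surfactant lipid is loaded with the small hydrophobic proteins SP-B and SP-C into lamellar bodies, which the cell secretes. The large proteins SP-A and SP-D are collectins that bind microbes and take part in lung defence, and the transcription factor Nkx2-1 drives much of this program. RNA was taken from whole lung, in which fewer alveolar type 2 cells and less RNA per cell cannot be told apart.

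Each mouse gave 17501180 to 30011557 counts. In 32 of the 36 libraries, 5.27% to 11.3% of the counts lay on mitochondrially encoded genes. In 4 female libraries that share was 45.1% (saline, mouse 3), 38.4% (Corexit 9527, mouse 11), 22.6% (oil, mouse 6) and 20.7% (9500+oil, mouse 14). These 4 libraries also differ from the rest in the genes described here, and the counts of genes past a threshold that include them are given with and without them. The 10 genes together took 1.71% to 2.70% of the counts in the 32 libraries and 0.546% to 1.38% in the 4. Levels are counts per 1000000 (CPM) after normalization within a sex, and changes are log2 fold changes. A gene was called changed at an adjusted p under 0.05 by the quasi-likelihood F-test of edgeR over all genes tested.

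No gene of the 10 passed that threshold in any of the 24 comparisons. The gene with the smallest p was Lamp3, which encodes a lysosome-associated membrane protein of the lamellar body. In male mice it stood at 557, 557 and 599 CPM after saline and at 874, 804 and 901 CPM after Corexit 9527, a log2 fold change of 0.59 (SE 0.10, 1.51-fold, n = 3 and 3, edgeR adjusted p = 0.0558). All 3 treated mice lay above all 3 saline mice. Sftpc, the most abundant of the 10, had a log2 fold change of 0.01 in the same lungs.

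In copies per length, Sftpc stood far above the others. Over the 18 male mice its level ran from 8728 to 14880 CPM per kb of exon. By CPM per kb it was the 2nd highest of the annotated nuclear genes in every male library and in the 14 female libraries outside the 4. Sftpa1 followed with a median of 1047 CPM per kb in male mice. The ranges of these 2 genes overlapped neither each other nor any of the rest. Slc34a2 (median 528 CPM per kb) and Sftpb (522 CPM per kb) came next and overlapped. Sftpd (250.9 CPM per kb), Lamp3 (198 CPM per kb) and Napsa (121 CPM per kb) formed a chain in which each overlapped the next. Abca3 (72.4 CPM per kb), Nkx2-1 (65.5 CPM per kb) and Lpcat1 (56.96 CPM per kb) were the lowest and also overlapped. In the 14 other female libraries the first 4 places were the same, with medians of 11130 CPM per kb for Sftpc and 797 CPM per kb for Sftpa1. Each gene thus rested on many counts, from 2778 for Nkx2-1 to 398771 for Sftpc in a male library.

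The promoters of 3 of these genes are shown for what is known of their control and for the result above. Nkx2-1 is known to bind sites with the core CTCAAG in surfactant gene promoters, so the core was searched, on both strands and with no other motif, in the 300 bases from 250 before to 50 after each start site in RefSeq's mouse promoters (GRCm38.p6). Promoters were found for 7 of the 10 genes, which leaves out Sftpc, Sftpd and Napsa. Sftpa1 and Sftpb held the core, as did 15.9% of the 32851 promoters of the table, and Abca3, Lamp3, Slc34a2, Lpcat1 and Nkx2-1 did not. A match is a run of letters and not a shown binding site. The cores are in capitals. Sftpa1 has 1 match, starting 166 bases before the start site, and Sftpb has 2, starting 100 and 15 bases before it. Lamp3, which of the 10 had the largest log2 fold change in male mice given Corexit 9527, is shown for comparison.
Sftpa1, chr14:41131538-41131837, plus strand: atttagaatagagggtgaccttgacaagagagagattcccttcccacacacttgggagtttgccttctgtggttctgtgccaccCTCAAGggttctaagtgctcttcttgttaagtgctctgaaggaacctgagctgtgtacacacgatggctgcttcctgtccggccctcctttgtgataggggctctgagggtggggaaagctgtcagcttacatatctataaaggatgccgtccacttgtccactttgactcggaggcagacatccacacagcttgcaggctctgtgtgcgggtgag
Sftpb, chr6:72304360-72304659, plus strand: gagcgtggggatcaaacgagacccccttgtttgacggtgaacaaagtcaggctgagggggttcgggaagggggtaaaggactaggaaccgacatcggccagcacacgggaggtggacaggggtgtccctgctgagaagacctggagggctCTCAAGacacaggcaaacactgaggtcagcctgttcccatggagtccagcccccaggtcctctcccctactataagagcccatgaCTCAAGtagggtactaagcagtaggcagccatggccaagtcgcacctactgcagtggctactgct
Lamp3, chr16:19706316-19706615, minus strand: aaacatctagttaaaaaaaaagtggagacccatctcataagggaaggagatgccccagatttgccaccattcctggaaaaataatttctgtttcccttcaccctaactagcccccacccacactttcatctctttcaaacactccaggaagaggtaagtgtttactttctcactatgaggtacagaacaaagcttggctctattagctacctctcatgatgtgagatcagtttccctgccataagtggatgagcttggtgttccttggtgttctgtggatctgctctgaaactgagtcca

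Among the surfactant protein genes, Sftpc and Sftpa1 had log2 fold changes near 0 in male mice given Corexit 9527. Sftpc (chr14:70520949-70524081), which encodes SP-C, stood at 13122, 12592 and 12859 CPM in the saline mice and at 12816, 10894 and 15126 CPM after Corexit 9527. Its group means ran from 11410 ± 2227 CPM (SD, n = 3) after 9527+oil to 12946 ± 2119 CPM after Corexit 9527, and its range after every treatment overlapped that of saline. Its log2 fold change was within 0.18 of 0 in all 5 male comparisons, with a 95% interval of -0.30 to 0.32 for Corexit 9527 and of -0.52 to 0.16 for 9527+oil. Sftpa1 (chr14:41131782-41136452), which encodes SP-A, stood at 2825, 2947 and 3009 CPM after saline and at 2797, 2447 and 3785 CPM after Corexit 9527. The interval of that difference was -0.32 to 0.40. After oil the 3 mice (3227, 3059 and 3155 CPM) lay just above the saline mice, with a log2 fold change of 0.10 and an interval of -0.09 to 0.29.

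SP-B is the surfactant protein without which lamellar bodies do not form properly. Its gene Sftpb (chr6:72304610-72314371) stood at 910, 1003 and 1021 CPM in male mice after saline, at 1024, 1235 and 1202 CPM after Corexit 9527 and at 894, 1034 and 852 CPM after 9527+oil. The mice given Corexit 9527 lay above all saline mice, the lowest by a narrow margin, with a log2 fold change of 0.24 (interval -0.01 to 0.49). SP-D is encoded by Sftpd (chr14:41172214-41185149), a neighbour of Sftpa1. It stood at 529, 578 and 483 CPM after saline, at 664, 568 and 655 CPM after oil and at 625, 604 and 841 CPM after Corexit 9527. All 3 mice given Corexit 9527 exceeded the saline mice, whereas 1 of the 3 given oil did not. The log2 fold changes were 0.38 (SE 0.14, edgeR adjusted p = 0.291) and 0.24 (SE 0.10, edgeR adjusted p = 0.594). In the 9500+oil and 9527+oil groups the means were 538 ± 96.3 and 577 ± 142 CPM (SD, n = 3), and both overlapped saline (530 ± 47.5 CPM).

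**Figure D1:**
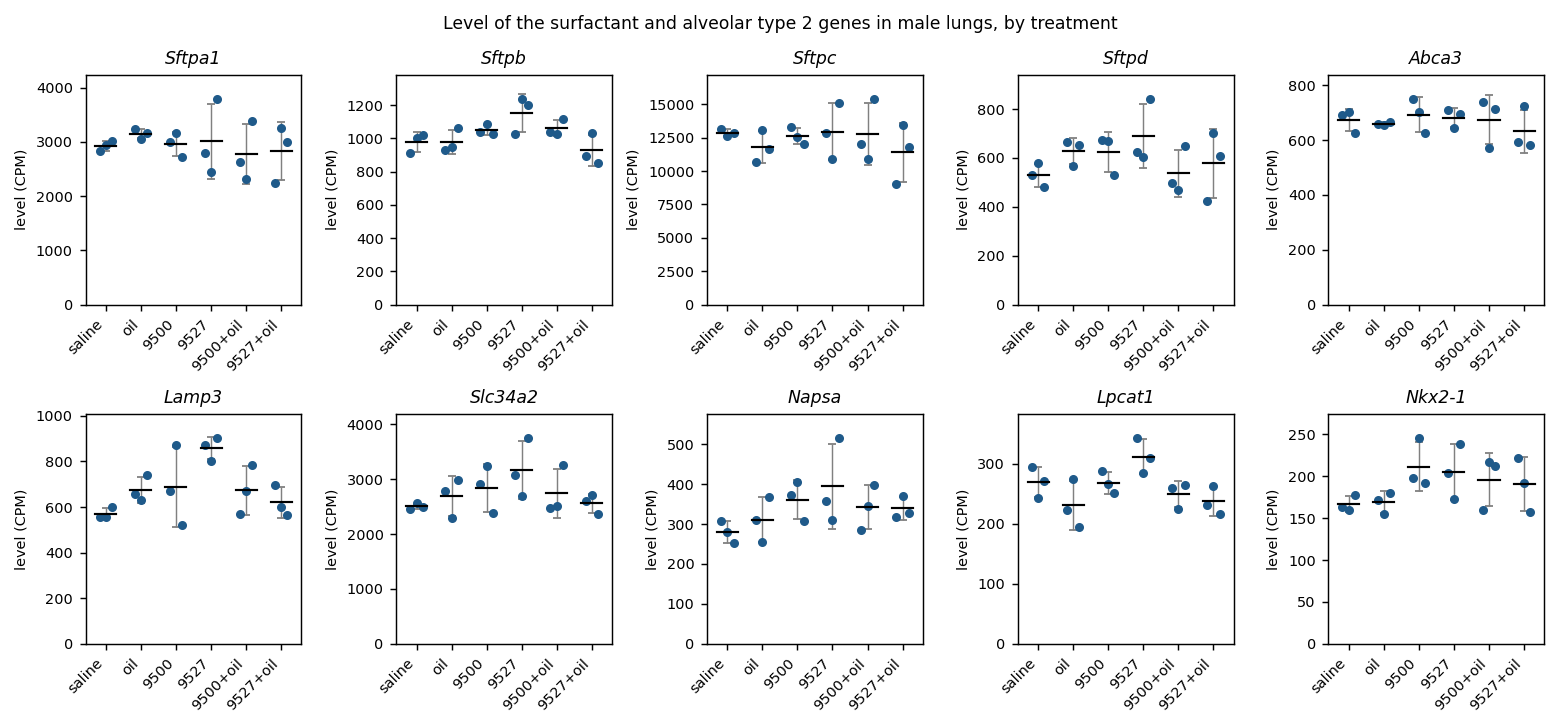
Level in CPM (vertical axis, from 0) of each of the 10 genes in the left lung of the 18 male mice, by treatment. Points are mice, horizontal bars are the means of 3 mice and whiskers are 1 SD. The 3 mice given Corexit 9527 lie above the 3 saline mice for Lamp3 (804 to 901 CPM against 557 to 599 CPM), Slc34a2, Sftpd, Sftpb and Napsa, with the last 2 close to overlap.

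The genes for handling surfactant lipid and protein inside the cell differed among themselves. Abca3 (chr17:24351950-24410201), the transporter that carries phospholipid into lamellar bodies, varied least of the 10 over the 18 male mice, from 572 to 749 CPM (coefficient of variation 7.99%). After Corexit 9527 it stood at 710, 643 and 693 CPM against 692, 701 and 626 CPM after saline, and the interval of its log2 fold change was -0.20 to 0.24. Lamp3 (chr16:19653378-19706375) varied more, from 522 to 901 CPM (17.8%). Besides the values given above, it stood at 659, 629 and 740 CPM after oil, all above saline, at 672, 872 and 522 CPM after Corexit 9500, at 568, 672 and 783 CPM after 9500+oil and at 696, 602 and 563 CPM after 9527+oil. Its log2 fold change after oil was 0.24 (SE 0.09, edgeR adjusted p = 0.540).

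Napsa (chr7:44572380-44586862) encodes napsin A, an aspartic protease that cleaves the SP-B precursor, and it had the widest spread of the 10 in male mice (18.5%). It stood at 308, 279 and 253 CPM after saline and at 359, 310 and 514 CPM after Corexit 9527. After Corexit 9500 it stood at 371, 405 and 307 CPM, and after 9527+oil at 318, 371 and 328 CPM. All mice given Corexit 9527 or 9527+oil lay above the saline mice, although the lowest Corexit 9527 mouse did so by a narrow margin, and the Corexit 9500 mice overlapped saline narrowly. The log2 fold changes were 0.49 (SE 0.18) for Corexit 9527, 0.36 (SE 0.12) for Corexit 9500 and 0.27 (SE 0.11) for 9527+oil, with edgeR adjusted p of 0.277, 0.782 and 0.885. Its log2 fold change after 9500+oil was 0.29, with an interval of -0.01 to 0.59, and it was the member with the smallest p of that comparison. That value was 0.17 without mouse 15.

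Slc34a2 (chr5:53038081-53071664), the sodium-dependent phosphate transporter of the apical membrane of type 2 cells, stood at 2464, 2561 and 2498 CPM after saline and at 3073, 2700 and 3743 CPM after Corexit 9527. The groups did not overlap, and the log2 fold change was 0.34 (SE 0.13, edgeR adjusted p = 0.301). Lpcat1 (chr13:73467197-73516422), the acyltransferase that remodels phosphatidylcholine into its disaturated surfactant form, stood at 294, 243 and 271 CPM after saline and at 342, 284 and 309 CPM after Corexit 9527. These groups overlapped (log2 fold change 0.21, interval -0.05 to 0.47). After oil Lpcat1 stood lower, at 222, 275 and 195 CPM, with an interval of -0.55 to 0.09. Nkx2-1 (chr12:56531958-56536908), the transcription factor, was the lowest of the 10 by CPM, with 163, 160 and 177 CPM after saline. It stood at 197, 245 and 192 CPM after Corexit 9500, all above saline, and at 204, 172 and 239 CPM after Corexit 9527, which overlapped saline. The log2 fold changes were 0.34 (SE 0.11, edgeR adjusted p = 0.756) and 0.30 (SE 0.13, edgeR adjusted p = 0.346), and the first was 0.22 without mouse 8.

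Counted together, more of these genes passed the unadjusted threshold in male mice after Corexit 9527 than after the other treatments, and so did more of all genes tested. At an unadjusted p under 0.05, 5 of the 10 genes were higher after Corexit 9527 (Lamp3, Napsa, Sftpd, Slc34a2 and Nkx2-1) and 0 lower, where 13.7% of all genes tested passed in either direction and 7.96% passed and were higher. All 10 log2 fold changes were above 0, from 0.01 for Sftpc to 0.59 for Lamp3, with a median of 0.27 against -0.01 over all genes tested. The summed level of the 10 genes nevertheless overlapped, at 21621 to 21864 CPM after saline and 20094 to 27354 CPM after Corexit 9527, and Sftpc alone stood at 12592 to 13122 and 10894 to 15126 CPM. At the adjusted threshold 0 of the 10 passed, beside 0.114% of all genes tested. By DESeq2, 1 of the 10 passed, Lamp3, beside 3.93% of all genes. Mouse 12 had the highest level of the 3 for 7 of the 10 genes, and without it the median of the 10 was 0.22. The log2 fold changes were then 0.27 for Napsa, 0.22 for Sftpd, 0.21 for Slc34a2 and 0.18 for Nkx2-1, each over 1.5 times smaller, and 0.57 for Lamp3, with an edgeR adjusted p of 0.0431. With each mouse of the comparison left out in turn, the edgeR adjusted p of Lamp3 ran from 0.0431 to 0.251.

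For the other treatments in male mice fewer genes passed the unadjusted threshold. After oil they were Lamp3 and Sftpd, 2 of 10 beside 8.21% of all genes, with a median log2 fold change of 0.06 over the 10. After Corexit 9500 they were Napsa and Nkx2-1, 2 of 10 beside 6.35%, with a median of 0.14. After 9527+oil it was Napsa, 1 of 10 beside 5.54%, with a median of -0.01. After 9500+oil it was none of the 10 beside 9.22%, with a median of 0.07. None of these genes was lower. These medians rested on single mice: without mouse 15 that of 9500+oil was -0.027, without mouse 18 that of 9527+oil was 0.030, without mouse 8 that of Corexit 9500 was 0.072 and without mouse 6 that of oil was -0.0073. At the adjusted threshold none passed in edgeR or DESeq2, beside 0.00671% of all genes after oil, 0.00662% after Corexit 9500, 0% after 9500+oil and 0.00669% after 9527+oil in edgeR, and beside 1.25%, 0.324%, 0.343% and 0.167% in DESeq2. These 5 comparisons share the 3 saline mice. Across all 6 male groups at once, Sftpb, Lamp3 and Lpcat1 passed the unadjusted threshold, 3 of 10 beside 10.4%, and none passed the adjusted one, beside 0.135%, with the lowest edgeR adjusted p of the 10 at 0.390.

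**Figure D2:**
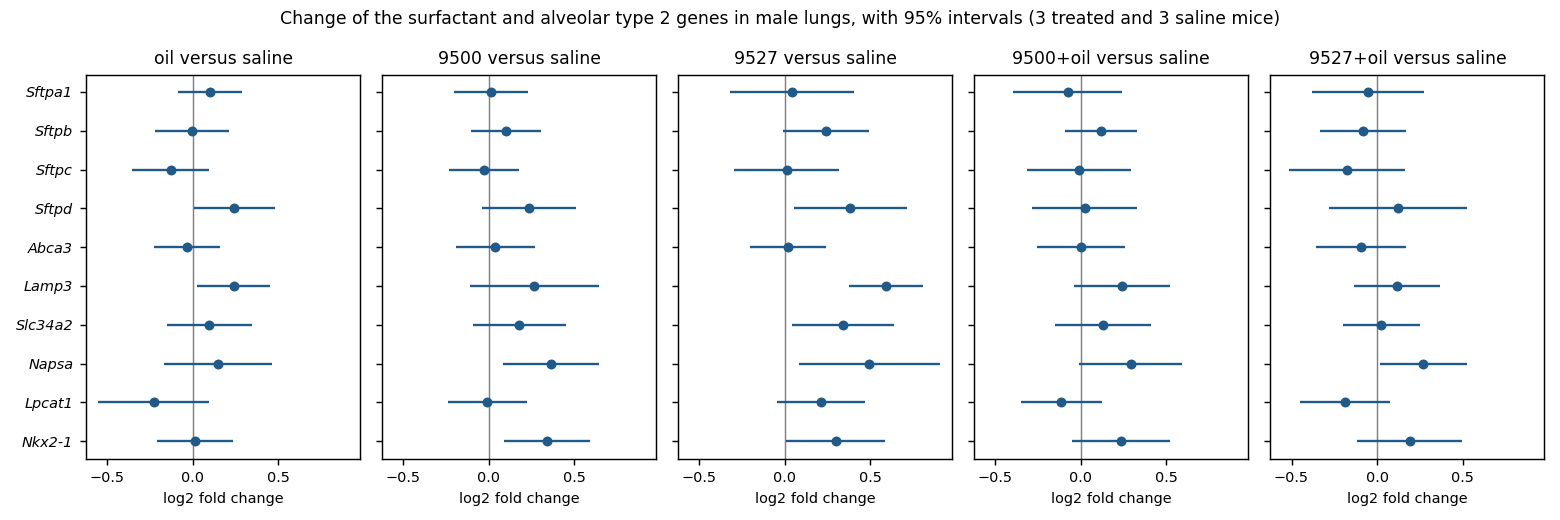
Log2 fold change against saline (horizontal axis) of each of the 10 genes in male mice, in 1 panel for each treatment. Points are edgeR estimates from 3 treated and 3 saline mice and lines are 95% intervals. After Corexit 9527 the intervals of Lamp3, Napsa, Sftpd, Slc34a2 and Nkx2-1 lie above 0, whereas those of Sftpc, Sftpa1 and Abca3 are centred near 0.

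In female mice several of these genes lay outside the range of the other libraries in the 4 with a high mitochondrial share. Nkx2-1 stood at 1798 CPM in saline mouse 3, at 1175 CPM in Corexit 9527 mouse 11, at 455 CPM in oil mouse 6 and at 456 CPM in 9500+oil mouse 14, against 137 to 306 CPM in the 14 other female libraries. Lamp3 was also higher in the 4, at 1229 to 1341 CPM against 571 to 1014 CPM, and Sftpb was higher in 3 of them (915 to 1391 CPM against 560 to 876 CPM) but not in oil mouse 6 (700 CPM). Napsa was far lower, at 31.9 to 82.7 CPM against 216 to 438 CPM. Abca3 (46.3 to 166 CPM against 272 to 490 CPM) and Sftpd (59.6 to 218 CPM against 329 to 987 CPM) were lower in the same way and did not overlap. Slc34a2 was moderately lower (1267 to 1823 CPM against 1939 to 2904 CPM). Sftpc lay below the others in the libraries with the largest mitochondrial share, with 3587 CPM in saline mouse 3 and 5218 CPM in Corexit 9527 mouse 11 against 8023 to 16386 CPM, and within their range in oil mouse 6 and 9500+oil mouse 14. Lpcat1 (88.0 to 179 CPM against 167 to 282 CPM) overlapped, and Sftpa1 (1801 to 2267 CPM) stayed inside the range of the other libraries (1702 to 3098 CPM). The CPM of a library are divided by its normalization factor. The factor was 0.488 in saline mouse 3, 0.532 in Corexit 9527 mouse 11, 0.832 in oil mouse 6 and 0.863 in 9500+oil mouse 14. It ran from 1.05 to 1.19 in the 14 other female libraries. A factor below 1 raises the CPM of every gene of the library. Its part in the higher levels of Nkx2-1, Lamp3 and Sftpb was not tested.

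The 4 libraries also held fewer counts on GC-rich genes. The log2 ratio of counts on genes of at least 55.5% GC to counts on genes of at most 44.06% GC, relative to the median library, was -3.40 in saline mouse 3, -3.24 in Corexit 9527 mouse 11, -2.28 in 9500+oil mouse 14 and -2.27 in oil mouse 6. It ran from -0.85 to 0.17 in the 14 other female libraries. The GC content of the longest transcript was 38.7% for Lamp3, 58.6% for Sftpb and 56.9% for Nkx2-1, which were higher, and 54.9% for Napsa, 54.8% for Abca3 and 49.97% for Sftpd, which were lower. With offsets for GC content and length in the fit, the log2 fold changes of Nkx2-1 against saline in female mice were -3.36 after oil, -4.41 after Corexit 9500, -3.42 after 9500+oil and -4.73 after 9527+oil, farther from 0 than without the offsets. The part of the mitochondrial share and of this ratio in the levels of the 10 genes in the 4 libraries was not tested. The 4 libraries fell in 4 different groups, 1 of them the saline group, so the saline means of the female table are wide for several genes. For Nkx2-1 the female saline mice stood at 137, 181 and 1798 CPM.

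**Figure D3:**
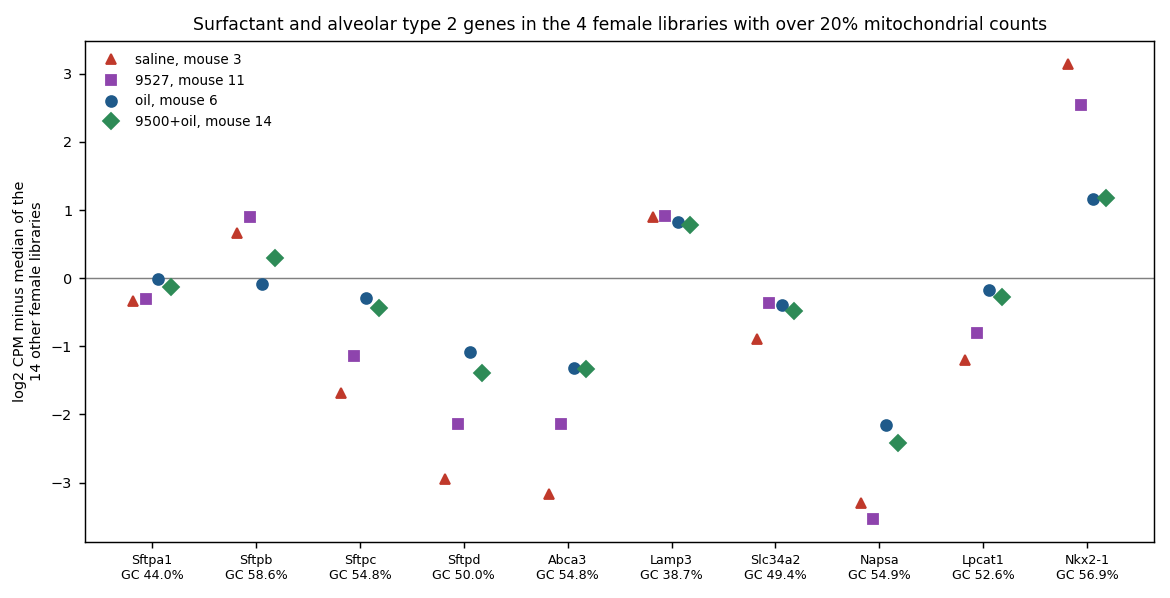
Log2 difference (vertical axis) between the CPM of each of the 10 genes in 1 of the 4 female libraries with over 20% mitochondrial counts and the median of the 14 other female libraries, with the GC content of the longest transcript under each symbol. Nkx2-1 and Lamp3 lie above 0 in all 4 libraries, and Napsa, Abca3 and Sftpd lie at -1.09 or below in all 4.

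With all female mice in the fits, none of the 10 genes passed either threshold against saline. The shares of all genes past the unadjusted threshold were 0.108% after oil, 0.364% after Corexit 9500, 0.267% after Corexit 9527, 0.155% after 9500+oil and 1.1% after 9527+oil, and 0% passed the adjusted threshold in each. DESeq2 also called none of the 10, beside 0%, 0.0135%, 0.04%, 0% and 0.0471% of all genes in the same order, and 0 of the 10 had an unadjusted p under 0.05 in it, beside 0.586%, 1.23%, 0.76%, 0.385% and 3.48%. The member with the smallest p was Nkx2-1 in 4 of the 5 comparisons, with log2 fold changes of -1.46 (oil), -1.66 (Corexit 9500), -1.46 (9500+oil) and -1.72 (9527+oil), and Slc34a2 after Corexit 9527 (0.27, interval -0.85 to 1.40). The value of Slc34a2 was 0.20 without the 4 libraries, 0.059 without saline mouse 3 alone and 0.45 without saline mouse 1. Without the 4 libraries the values of Nkx2-1 turned to 0.31, 0.50, 0.30 and 0.46. The intervals with all mice were wide, for instance -4.26 to 0.82 for Nkx2-1 after 9527+oil, so changes of the size seen in male mice were not detectable in these fits. Across all 6 female groups none of the 10 passed, beside 1.35% at the unadjusted and 0.0129% at the adjusted threshold. Without the 4 libraries none passed there either, beside 4.23% and 0%.

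**Figure D4:**
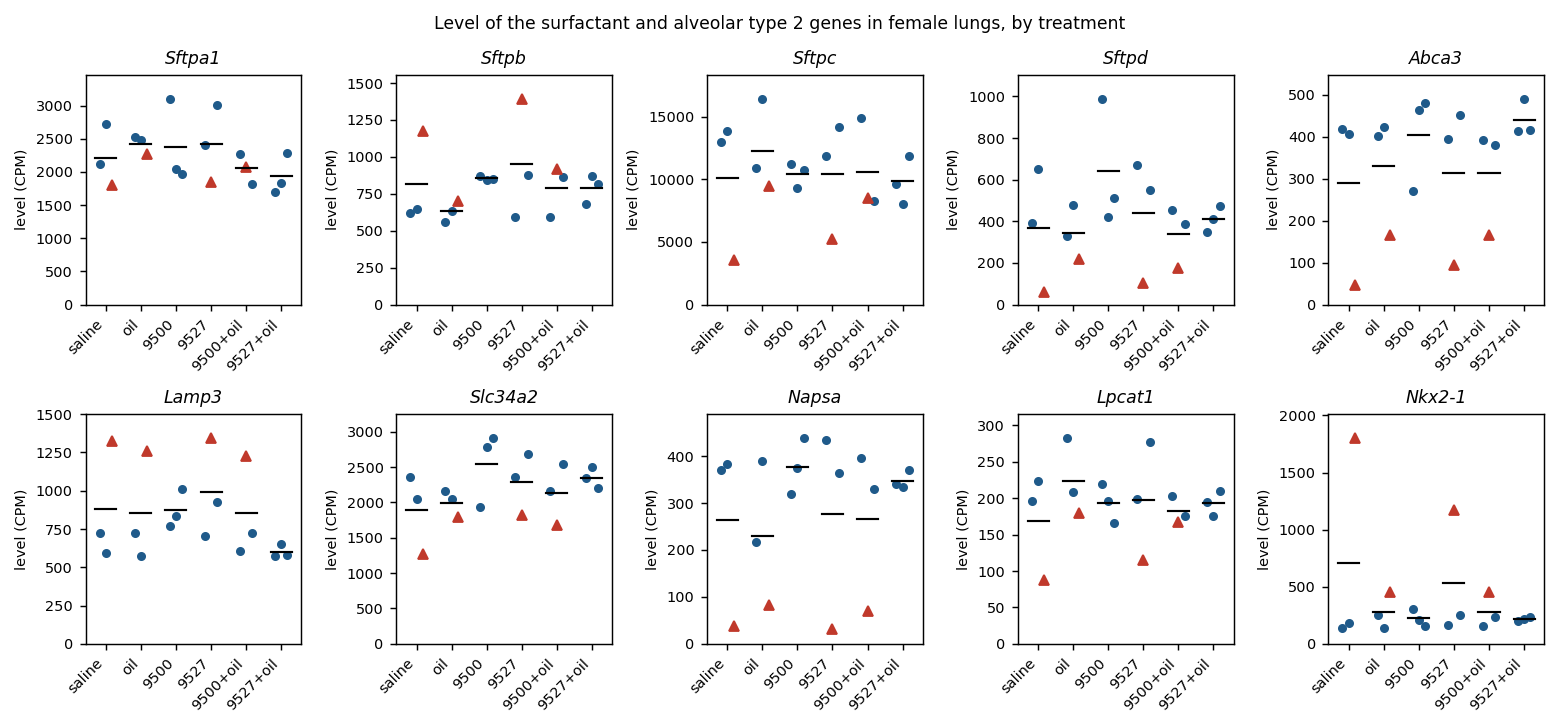
Level in CPM (vertical axis, from 0) of each of the 10 genes in the left lung of the 18 female mice, by treatment. Circles are mice, red triangles are the 4 libraries with over 20% mitochondrial counts and horizontal bars are means of the 3 mice of a group. The triangles lie highest for Nkx2-1 (455 to 1798 CPM) and Lamp3 and lowest for Napsa, Abca3 and Sftpd.

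Without the 4 libraries, 2 saline mice remained for the female comparisons. In them Lamp3 stood at 725 and 591 CPM after saline, at 702 and 929 CPM after Corexit 9527 and at 770, 835 and 1014 CPM after Corexit 9500, so that the Corexit 9500 mice lay above saline and the Corexit 9527 mice overlapped it. The log2 fold changes were 0.41 (interval -0.13 to 0.94) for Corexit 9500 and 0.32 (interval -0.22 to 0.85) for Corexit 9527. After 9527+oil 3 genes passed the unadjusted threshold, Nkx2-1 (0.46) and Sftpb (0.32) being higher and Sftpc (-0.44, interval -0.84 to -0.05) lower, beside 12.3% of all genes. Sftpc stood at 12936 and 13847 CPM in the 2 saline mice and at 9582, 8023 and 11874 CPM after 9527+oil, and the groups did not overlap. None of the 3 passed the adjusted threshold, beside 0.0132% of all genes, and the lowest edgeR adjusted p was 0.345. None of the 10 passed the unadjusted threshold after oil, beside 0.959% of all genes, Corexit 9500 (1.64%), Corexit 9527 (4.98%) or 9500+oil (1.24%), and 0% of all genes passed the adjusted one in these 4 comparisons.

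Over both sexes, with sex in the model, none of the 10 genes passed either threshold against saline with all mice. The shares of all genes past the unadjusted threshold were 0.442% after oil, 2.3% after Corexit 9500, 2.86% after Corexit 9527, 0.418% after 9500+oil and 2.99% after 9527+oil. Those past the adjusted threshold were 0.0326% after Corexit 9527 and 0% after each of the others. DESeq2 called none of the 10 either, beside 0.0065%, 0.0324%, 0.829%, 0% and 0.0195% in the same order of treatments, with 0 at an unadjusted p under 0.05, beside 1.09%, 3.83%, 4.64%, 1.29% and 5.62%. The member with the smallest p was Lamp3 after Corexit 9527 (0.37, interval -0.15 to 0.89), Slc34a2 after Corexit 9500 (0.30, interval -0.13 to 0.73, and 0.19 without female saline mouse 3) and Nkx2-1 in the other 3. Without the 4 libraries Lamp3 passed the adjusted threshold after Corexit 9527, with a log2 fold change of 0.48 (SE 0.10, interval 0.25 to 0.71, edgeR adjusted p = 0.0413), beside 2.13% of all genes. Lamp3, Slc34a2, Napsa and Nkx2-1, 4 of the 10, then passed the unadjusted threshold and were higher, where 15.6% of all genes passed in either direction and 8.74% were higher. With all mice the value of Lamp3, 0.37, depended on the processing, from 0.22 with offsets for GC content and length to 0.50 with voom, and on 2 female mice, being 0.59 without saline mouse 3 alone and 0.28 without Corexit 9527 mouse 11 alone.

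The 4 libraries also changed the count after Corexit 9500. Without them Sftpb (0.25), Lamp3 (0.33) and Nkx2-1 (0.41), 3 of the 10, passed the unadjusted threshold over both sexes and were higher, where 5.62% of all genes passed in either direction and 3.66% were higher. The value of Nkx2-1 was -0.66 with all mice, so its direction turned. The median of the 10 was 0.20 against 0.11 with all mice. After 9527+oil Nkx2-1 was higher (0.31) and Sftpc lower (-0.30) at that threshold, beside 10.6%. After oil and after 9500+oil none of the 10 passed, beside 2.52% and 7.16%. In these 4 comparisons none of the 10 and 0% of all genes passed the adjusted threshold.

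The difference between the sexes was tested as a sex-by-treatment interaction, and none of the 10 genes passed. The shares of all genes past the unadjusted threshold were 1.65% for oil, 0.726% for Corexit 9500, 0.352% for Corexit 9527, 0.509% for 9500+oil and 2.39% for 9527+oil, with 0% past the adjusted threshold in each. For Lamp3 after Corexit 9527 the male change exceeded the female one by 0.43 on the log2 scale, with an interval of -0.634 to 1.502, and by 0.27 (interval -0.19 to 0.73) without the 4 libraries. Without them none of the 10 passed the adjusted threshold for any treatment, beside 0.00642% of all genes for oil, 0.0064% for 9527+oil and 0% for the others. At the unadjusted one Napsa (0.39) and Sftpb (-0.40) passed for 9527+oil, beside 6.73%, and none for oil (5.98%), Corexit 9500 (1.96%), Corexit 9527 (2.81%) or 9500+oil (2.63%). With all mice DESeq2 called none of the 10 either, beside 0.0911% of all genes for oil, 0.0389% for Corexit 9500, 0.0587% for Corexit 9527, 0.0131% for 9500+oil and 0.0843% for 9527+oil. It had 0 of the 10 at an unadjusted p under 0.05, beside 3.09%, 1.44%, 0.959%, 1.18% and 3.84%. Levels of the tables were normalized separately and were not tested against each other. Set side by side, Abca3 ran from 572 to 749 CPM in the 18 male mice and from 272 to 490 CPM in the 14 female libraries, and Lamp3 from 522 to 901 CPM and from 571 to 1014 CPM.

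The groups also allow each dispersant to be compared with and without oil. Lamp3 stood lower after 9527+oil than after Corexit 9527 over both sexes, with a log2 fold change of -0.59 (SE 0.16, interval -0.94 to -0.24, edgeR adjusted p = 0.177). In male mice the values were 696, 602 and 563 CPM with oil and 874, 804 and 901 CPM without. In female mice they were 571, 654 and 579 CPM with oil, and 702, 1341 and 929 CPM without, where 1341 CPM belonged to mouse 11 of the 4 libraries. Every mouse given 9527+oil lay below every mouse given Corexit 9527 of its sex. Lamp3 was the only one of the 10 past the unadjusted threshold, beside 14.1% of all genes, and 0 of 10 passed the adjusted one, beside 0.559%. Without the 4 libraries the change of Lamp3 was -0.46 (SE 0.09, edgeR adjusted p = 0.0165), 1 of 10 passed beside 6.63% of all genes, and Sftpd (-0.40), Lpcat1 (-0.36) and Slc34a2 (-0.22) also lay past the unadjusted threshold, where 25.6% of all genes passed in either direction and 13.7% were lower. DESeq2 called Lamp3 with all mice, beside 4.09% of all genes. With offsets for GC content and length the change of Lamp3 was -0.16 (edgeR adjusted p = 0.573), so its size depended on that choice.

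Some markers of other lung cells also passed the unadjusted threshold between 9527+oil and Corexit 9527 over both sexes with all mice. None of the endothelial, club cell or alveolar macrophage markers passed the adjusted one. At the unadjusted threshold 4 of the 7 endothelial markers were higher and 1 lower (Cdh5 at 0.60 on the log2 scale, edgeR adjusted p = 0.197), 3 of the 6 club cell markers were higher and 0 lower (Cyp2f2 at 0.63, edgeR adjusted p = 0.194), and 5 of the 9 alveolar macrophage markers were lower and 0 higher. These counts stand beside 5.42% of all genes higher and 8.73% lower. The summed endothelial level in male mice was 4092 to 4161 CPM with oil and 3458 to 3607 CPM without, and the summed macrophage level was 578 to 923 and 929 to 1713 CPM. The part of cell composition in the value of Lamp3 was not tested.

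Between 9500+oil and Corexit 9500 alone, none of the 10 genes passed the unadjusted threshold, beside 1.95% of all genes, or the adjusted one, beside 0%. Sftpd had the smallest p, with a log2 fold change of -0.56 and an interval of -1.14 to 0.02. That value rested in part on female Corexit 9500 mouse 7, which stood at 987 CPM, and was -0.33 without it, -0.39 without the 4 libraries and -0.22 with offsets for GC content and length. Without the 4 libraries none of the 10 passed either threshold, beside 3.3% and 0% of all genes. By DESeq2 0 of the 10 passed after adjustment, beside 0.0326% of all genes, and 1, Sftpd, passed the unadjusted threshold, beside 2.69%. The comparisons of 9527+oil with Corexit 9527 and of Corexit 9527 with saline share the Corexit 9527 mice, so their opposite signs for Lamp3 are not independent.

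Other genes of alveolar type 2 cells were described from a list of 18, of which 16 could be tested. In male mice given Corexit 9527, 8 of the 16 were higher at the unadjusted threshold and 0 lower, beside 7.96% and 5.78% of all genes tested, with a median of 0.24. The same shares stand beside the other lists of this comparison. Muc1, a membrane mucin of the alveolar and airway surface, was the 1 that passed the adjusted threshold, at 483 ± 28.8 CPM after saline and 847 ± 18.6 CPM after Corexit 9527 (SD, n = 3, log2 fold change 0.81, SE 0.09, edgeR adjusted p = 0.0330). Ctsh, a cathepsin that takes part in processing SP-B and SP-C, stood at 305 ± 23.5 and 515 ± 42.4 CPM (0.76, SE 0.11, edgeR adjusted p = 0.0558). Cxcl15, the chemokine lungkine, stood at 1238 ± 43.5 and 1946 ± 176 CPM (0.65, SE 0.11, edgeR adjusted p = 0.0558). Lamp3 had a change of similar size in the same mice (0.59), whereas Sftpc, Sftpa1 and Abca3 did not (0.01, 0.04 and 0.02).

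The lists of lipid synthesis and of transcription held few genes past the unadjusted threshold. Their counts lie near the share of all genes that were higher, 7.96%, and neither list was tested against Lamp3. Of the 15 genes of surfactant phospholipid and fatty acid synthesis, 1 was higher and 0 lower in male mice given Corexit 9527, with a median of -0.05. The 1 was Scd1, a fatty acid desaturase (2572 ± 604 CPM after saline and 4020 ± 609 CPM after Corexit 9527, edgeR adjusted p = 0.182). Of the 11 transcription factors known to act with Nkx2-1, 1 was higher, Klf5 (log2 fold change 0.24), and the median was -0.02. Of the 10 genes with a role in surfactant clearance by macrophages, 4 were higher and 0 lower, with a median of 0.29, among them Marco, a scavenger receptor (1.46, SE 0.31, edgeR adjusted p = 0.106), and Csf2rb and Csf2ra, which encode the receptor for GM-CSF (0.48 and 0.37). After oil in male mice 6 of those 10 were higher, beside 5.75% of all genes, with a median of 0.65, and the smallest p were those of Csf2rb2 (0.88), Csf2rb (0.90) and Csf2ra (0.80). The summed level of the alveolar macrophage markers was also higher in these mice, at 1033 to 1109 CPM after oil and 717 to 912 CPM after saline, with 4 of 9 markers higher and 1 lower at the unadjusted threshold, and its part in the list's values was not tested. None passed the adjusted threshold in either comparison.

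Genes of the transitional state between type 2 and type 1 cells had the largest median of the lists. In male mice given Corexit 9527, 9 of 10 were higher at the unadjusted threshold, beside 7.96% of all genes, with a median of 0.88, and none passed the adjusted one. Krt18 and Krt8, keratins that mark that state, stood at 76.9 ± 2.97 and 144 ± 37.4 CPM and at 146 ± 3.10 and 274 ± 87.4 CPM after saline and Corexit 9527 (SD, n = 3, edgeR adjusted p = 0.0749 and 0.117). Cldn4, a claudin, stood at 3.80 ± 1.00 and 12.0 ± 6.06 CPM (1.65, SE 0.37, edgeR adjusted p = 0.120). Of the 10 type 1 genes 1 was higher and 3 lower, with a median of -0.15, and the lowest was Hopx, a homeodomain protein (-0.57, SE 0.10, edgeR adjusted p = 0.0618). Over both sexes without the 4 libraries, 6 of the 10 transitional genes and 5 of the 16 other type 2 genes passed the adjusted threshold after Corexit 9527, as did Lamp3 and 2.13% of all genes.

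Some markers of other lung cells passed the unadjusted threshold in the same male lungs and are given beside the change of Lamp3. Of the endothelial list 5 of 7 were lower and 0 higher at the unadjusted threshold, where 5.78% of all genes were lower and 7.96% higher (summed level 4195 to 4700 CPM after saline and 3458 to 3607 CPM after Corexit 9527). Of the club cell list 2 of 6 were lower (19944 to 25118 and 15051 to 18323 CPM), and of the ciliated list 3 of 6 (527 to 644 and 426 to 528 CPM). Of the alveolar macrophage list 5 of 9 were higher (717 to 912 and 929 to 1713 CPM), of the fibroblast list 2 of 7 were higher and 1 lower (3867 to 4126 and 3773 to 5012 CPM), and of the leukocyte list none of 8 passed (352 to 553 and 284 to 493 CPM). The part of cell composition in the values of Lamp3, Napsa, Sftpd and Slc34a2, and in those of the transitional genes and the other type 2 genes, was not tested.

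**Figure D5:**
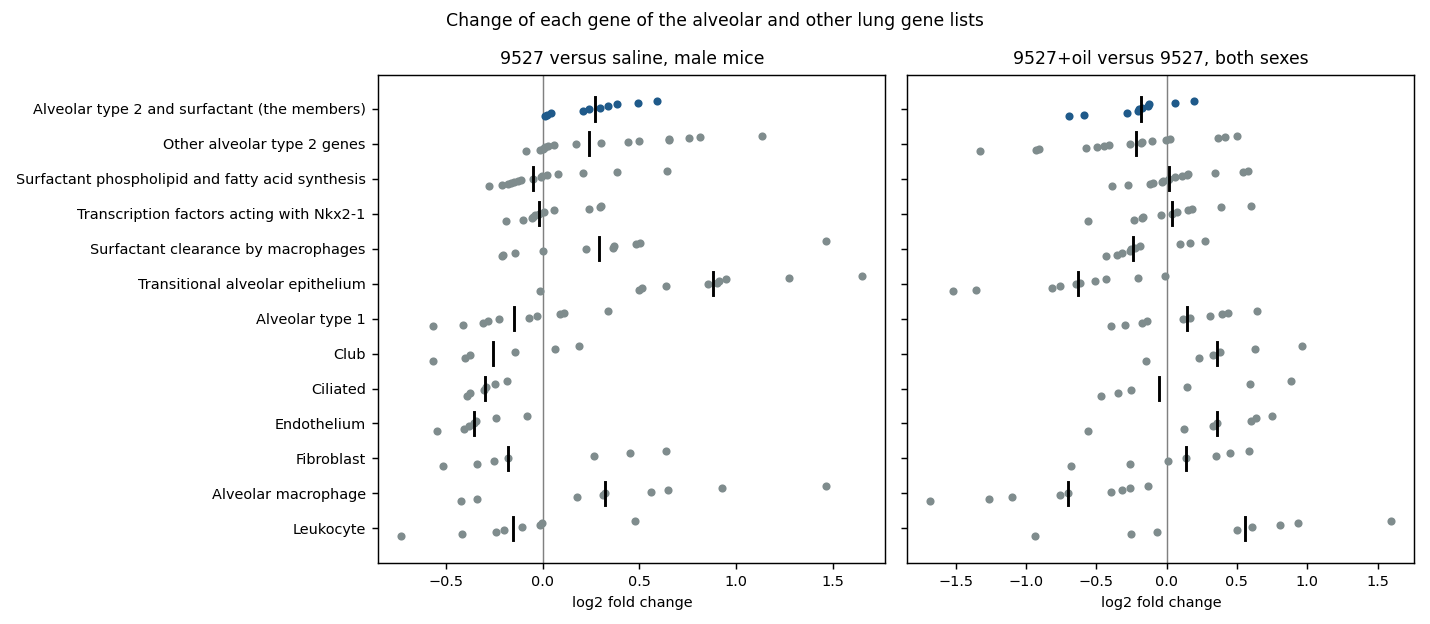
Log2 fold change (horizontal axis) of each tested gene of the 13 lists, for Corexit 9527 against saline in male mice (left) and for 9527+oil against Corexit 9527 over both sexes with all libraries (right). Points are genes, with the 10 surfactant and type 2 genes in blue, and black bars are medians, which for those 10 are 0.27 and -0.19. The panels share the male Corexit 9527 mice.

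The 10 genes varied together only in part. Over the 18 male mice the correlation of log2 CPM (Pearson's r, a description over mice that share each library's normalization) was 0.87 for Slc34a2 with Napsa, 0.84 for Slc34a2 with Lamp3, 0.82 for Sftpa1 with Sftpd and 0.76 for Sftpa1 with Sftpc. It was 0.04 for Abca3 with Nkx2-1 and 0.16 for Sftpc with Lamp3. Over the 14 female libraries outside the 4 it was 0.69 for Slc34a2 with Lamp3, 0.69 for Sftpa1 with Sftpd and 0.65 for Sftpa1 with Sftpc, but 0.28 for Slc34a2 with Napsa and -0.59 for Napsa with Nkx2-1. The r of the 10 genes with their own mean ran from 0.51 (Lpcat1) to 0.93 (Slc34a2) in male mice. In the female libraries it ran from -0.13 (Abca3) to 0.72 (Sftpa1), so the female mean followed some of the 10 little. Among 12958 genes, the 10 included, the others that followed this mean most closely in both sexes were Oxct1 (r of 0.77 in male and 0.78 in female mice), Npc2 (0.74 and 0.78), Vcpkmt (0.72 and 0.76), Fuca2 (0.72 and 0.79) and Sgpp2 (0.71 and 0.80). Npc2 encodes a cholesterol-binding protein of the lysosome.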

How the data were processed

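Per the study's methods, Salmon estimated the reads of each transcript of the GRCm38 cDNA set from mRNA libraries of the left lung, and tximport combined them. The authors deposited these estimated counts (expected counts) in 1 table for each sex, and all values were already whole numbers. Of each table, rows that share a name (4 in each) were left out, with 0.0103% of the female and 0.0128% of the male counts. Sample labels gave the sex, treatment and mouse of each library. Each sample is 1 mouse, so n counts mice, and depth was 17501180 to 30011557 counts.

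The main test was edgeR's quasi-likelihood F-test (edgeR 4.0.16, R 4.3.3), with TMM normalization, filterByExpr and Benjamini-Hochberg adjustment over all genes tested, on the mice of the groups compared. Sex was a covariate where both sexes entered. The study used DESeq2, run here as DESeq2 1.42.0. The 95% intervals use the same edgeR standard error. CPM use the effective library sizes over the 18 mice of a sex, log2 CPM for correlations a prior count of 2, and lengths and positions are the exon union of GENCODE M21 (GRCm38). The tests were checked on simulated data.

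The 10 genes and the 12 other gene lists were chosen with earlier results of these data known. All 10 were named. A fold change was described singly at an unadjusted p under 0.05 or for the smallest p of a comparison. Of other lists at most 3 genes with an unadjusted p under 0.05 were named in a comparison. The alternatives were DESeq2, its size factors, upper-quartile normalization, no filter, at least 10 counts in every mouse, mitochondrial genes left out, offsets for GC content and length, a single fit of all groups, no term for sex, voom with quality weights (limma 3.58.1), the 4 female libraries left out and each mouse left out in turn.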

Additional observations from a re-analysis of the deposited data

How the results depend on the processing

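The count of the 10 genes past the adjusted threshold stayed at 0 in 21 of the 24 comparisons under every alternative. In male mice given Corexit 9527 it was 1 (Lamp3) under DESeq2, without a filter, with at least 10 counts in every mouse and with voom, and 0 to 1 with a mouse left out, the 1 being without mouse 12 of Corexit 9527. Over the alternatives the log2 fold change of Lamp3 there ran from 0.51 to 0.60 and its adjusted p from 1.7e-07 (DESeq2) to 0.103 (offsets for GC content and length). With a mouse left out its edgeR adjusted p ran from 0.0431 to 0.251. For Lamp3 in 9527+oil against Corexit 9527 the log2 fold change ran from -0.61 to -0.16 and the adjusted p from 0.00548 (voom) to 0.573 (offsets for GC content and length). Over both sexes after Corexit 9527 the count was 1 without the 4 libraries and 1 with voom. For 9527+oil against Corexit 9527 it was 1 under DESeq2, 1 without the 4 libraries, 2 with voom and 0 to 1 with a mouse left out, the 1 being without female mouse 11 of Corexit 9527. That fit is the same as the one without the 4 libraries, of which only mouse 11 enters this comparison.

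The log2 fold change of Nkx2-1 against saline turned from below to above 0 in the following 7 comparisons without the 4 libraries, with voom and without female saline mouse 3. In female mice it was 0.31, 0.50, 0.30 and 0.46 without the 4 libraries for oil, Corexit 9500, 9500+oil and 9527+oil, and 0.59, 0.19, 0.34 and 0.42 with voom. With a mouse left out it ran from -1.96 to 0.83, -2.14 to 0.50, -1.96 to 0.82 and -2.17 to 0.46. Over both sexes it was 0.13, 0.26 and 0.31 without the 4 libraries for oil, 9500+oil and 9527+oil, 0.014, 0.18 and 0.22 with voom, and -0.85 to 0.37, -0.71 to 0.49 and -0.91 to 0.31 with a mouse left out. It also turned without the 4 libraries for Corexit 9500 over both sexes, from -0.66 to 0.41, and for Corexit 9527, from -0.43 to 0.42 in female mice and from -0.065 to 0.35 over both sexes. Offsets for GC content and length moved Nkx2-1 the other way, to -3.36, -4.41, -3.42 and -4.73 after oil, Corexit 9500, 9500+oil and 9527+oil in female mice. Its sex difference turned from 1.37 to -0.29 for oil, from 0.73 to -0.13 for Corexit 9527 and from 1.90 to -0.26 for 9527+oil without the 4 libraries. It was -0.16 for Corexit 9500 and -0.072 for 9500+oil without the 4 libraries and -0.074 for 9500+oil with voom (0.16 for Corexit 9500, which kept its sign), and ran from -0.16 to 2.51 and from -0.59 to 2.09 with a mouse left out. The sex difference of Lamp3 for Corexit 9527 ran from -0.0054 to 0.72 with a mouse left out. The highest of these left-out values of Nkx2-1 against saline, and the lowest of its sex differences, came without female saline mouse 3. For Corexit 9500 and 9527+oil that fit is the same as the one without the 4 libraries, since only this mouse of the 4 enters.

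The median of the 10 genes ran from -0.0073 to 0.093 for oil in male mice with a mouse left out. For the sex difference it ran from -0.12 to 0.24 for oil and from -0.39 to 0.087 for 9527+oil, and it was 0.19 for Corexit 9500 with voom. With a mouse left out that difference ran from -0.17 to 0.29 for Corexit 9527 and from -0.17 to 0.17 for 9500+oil. In female mice the median ran from -0.064 to 0.21 for oil and from -0.058 to 0.38 for Corexit 9527. It ran from -0.22 to 0.27 for 9500+oil and from -0.11 to 0.31 for 9527+oil there. Over both sexes it ran from -0.051 to 0.15 for oil, from -0.10 to 0.12 for 9500+oil and from -0.064 to 0.051 for 9527+oil. The cause of these changes was not tested. Offsets for GC content and length moved the median log2 fold change of all genes most for 9527+oil in female mice, from 0.091 to -0.18.

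No paired analysis was possible because the groups compared within a sex share no mouse number, and female and male mice of the same number are different animals. The 3 mice of a group limit the precision.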

Other observations

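Other genes of the alveolar epithelium were also described for the remaining treatments, at an unadjusted p under 0.05. In male mice given Corexit 9500, 7 of the 10 genes of the transitional alveolar epithelium were higher and 0 lower, beside 4% and 2.36% of all genes tested (median 0.41 against -0.01 over all genes), with Krt19 at 0.46 (SE 0.12), Krt8 at 0.42 (SE 0.10) and Krt18 at 0.40 (SE 0.11) on the log2 scale. In the same lungs the summed level of the endothelial markers was 3773 to 4104 CPM, against 4195 to 4700 CPM after saline, with none of the 7 past that threshold, and the part of cell composition was not tested. Of the 16 other alveolar type 2 genes 4 were higher and 1 lower there, with the smallest p for Ctsh (0.42), Muc1 (0.42) and Cldn18 (0.32). In male mice given oil 4 of those 16 were higher, beside 5.75% of all genes, with the smallest p for Chil1, a chitinase-like protein (0.74, SE 0.14), Muc1 (0.48) and Egfl6 (0.34). None of these genes passed the adjusted threshold (edgeR).

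Between 9527+oil and Corexit 9527 over both sexes, 5 of the 10 transitional genes were lower and 0 higher, beside 8.73% and 5.42% of all genes (median -0.63), with the smallest p for Areg (-1.52), Krt7 (-0.51) and Krt8 (-0.76). Of the 9 alveolar macrophage genes 5 were lower (median -0.71), with the smallest p for Chil3 (-1.68, SE 0.36, edgeR adjusted p = 0.0723), Ear2 (-1.10) and Krt79 (-0.71). Of the other alveolar type 2 genes 6 were lower, and Il33, an epithelial alarmin, passed the adjusted threshold (-1.33, SE 0.22, edgeR adjusted p = 0.0267), with the next smallest p for Egfl6 (-0.93) and Hc (-0.57). Without the 4 female libraries 9 of the 10 transitional genes, 6 of the 9 macrophage genes and 7 of the 16 other type 2 genes were lower, beside 13.7% of all genes, with medians of -0.86, -0.59 and -0.19.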
